A study of Danio rerio with 33 samples.

Results

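The 10 genes described here, cadpsb, fer1l6, layna, anxa6, anpepb, ryr2a, shc3, ppp1r32, pkd1b and tpm4b, were picked from the 30490 genes of the zebrafish gene table because their levels changed strongly in the ovary or testis of kctd15 mutants. The rule names the genes and gives no cut-off. The libraries that chose them are the 12 gonad libraries, so every gonad value below describes the genes and tests nothing. By the rule the embryo libraries had no part in the choice, so tests are given there. The genes were, however, chosen with earlier results of these data known.

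The series sequenced polyadenylated RNA of adult gonads and of 10-somite embryos. Its 33 libraries form 11 groups of 3 biological replicates. The gonad groups were wild-type ovary, kctd15 mutant ovary, wild-type testis and kctd15 mutant testis. The embryo groups were wild type with no injection named, kctd15 mutants, and wild-type embryos given 100 pg kctd15, 5 pg AP2, 5 pg AP2-P59, AP2 with kctd15 or AP2-P59 with kctd15 at those doses. The labels do not say which kctd15 gene is mutated, which allele it is, which AP2 gene was injected or what P59 changes, and they give no adult age. Kctd15 is a BTB-domain protein known in zebrafish for restricting neural crest formation, and AP2 factors, which it can bind, drive crest and epidermal genes.

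The genes were not chosen for a common pathway, and none was searched for. Several act where calcium meets membranes: ryanodine receptors release calcium from the endoplasmic reticulum, while Cadps proteins, ferlins and annexins are calcium-dependent proteins of vesicle priming, membrane fusion and membrane binding. Others act at the cell surface or just beneath it, such as layilin, a hyaluronan receptor in mammals, aminopeptidase N, an enzyme of brush borders in mammals, and Shc adaptors, which link receptor tyrosine kinases to Ras. Polycystin-1 proteins are large receptors known from primary cilia in mammals, tropomyosins run along actin filaments, and the ppp1r32 product is named as a regulatory subunit of protein phosphatase 1.

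Library totals ran from 15152199 to 24131756 estimated counts. Levels are counts set relative to library size (CPM), with sizes scaled over all 33 libraries by TMM, a method that equalises the bulk of genes. They serve to compare a gene with itself, since CPM of different genes also reflects transcript length. The 15 oocyte markers summed to between 20427 and 26073 CPM in the ovaries and between 64.7 and 100 CPM in the testes, so the organs match their labels. Of the kctd15 genes, kctd15a was at 61.1, 55.4 and 42.7 CPM in wild-type embryos and at 218, 198 and 204 CPM in mutants, and kctd15b was at 4.45, 1.82 and 2.65 CPM in wild-type and 0.959, 0.270 and 0.393 CPM in mutant ovaries. Since the lesion is not named, these levels check no label. The third mutant ovary library stood apart: 11 gut, kidney and liver markers summed to 6387 CPM there, against 43.0 and 74.6 CPM in the other mutant ovaries and 21.3 to 238 CPM in wild-type ovaries. Most of this sum lay in tfa, fabp10a and apoa1b, at 3781, 1170 and 922 CPM. The kidney markers cubn and lrp2a were at 2.56 and 11.2 CPM there, within the range of the other ovaries, and fabp1a was at 0 in every ovary. In the second, the 12 smooth muscle and stroma markers summed to 45.7 CPM, against 421 and 184 CPM in the other mutant ovaries and 201 to 330 CPM in wild types. There inha, the inhibin alpha gene, was at 2.21 CPM, against 20.9 and 19.7 CPM in the other mutant ovaries and 32.5 to 38.1 CPM in wild types. Cyp19a1a, the gonadal aromatase gene, was at 3.02 CPM there, against 18.1 CPM or more in every other ovary. Both are among the 14 measured gonad support cell markers, which summed to 271 CPM there. The sums were 328 and 280 CPM in the other mutant ovaries and 315 to 429 CPM in wild types. Star, nr5a1a, hsd3b1 and foxl2 of this list were also lower in the second mutant ovary than in any other ovary. Cyp17a1 and sox9b were not low there. Cyp17a1 was at 202.5 CPM, against 154 to 189 CPM in wild types, and sox9b at 25.7 CPM, against 9.10 to 17.4 CPM. Ovary results are therefore also given without each of these libraries. The injected embryo library labelled AP2-P59 with kctd15, replicate 1, had 0 estimated counts of the kctd15a transcript NM_001006012, against 170.6 to 730.5 in the other libraries given kctd15.

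In mutant ovaries cadpsb, fer1l6, layna, anxa6 and anpepb were high and ryr2a and shc3 were low, with no overlap between the 3 mutant and the 3 wild-type libraries. By edgeR's quasi-likelihood test 7 of the 10 genes had an adjusted p under 0.05, 5 higher and 2 lower, against 0.553% of the 25870 genes tested (0.348% higher and 0.205% lower). In testis 3 had one, ppp1r32 and pkd1b lower and tpm4b higher, against 0.0696% of genes (0.0425% lower and 0.0271% higher). The genes were chosen on these contrasts, so the counts restate the choice. Median log2 differences over the 10 genes were 2.66 in ovary and 0.03 in testis, beside 0.05 and 0.07 over all genes.

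**Figure D1:**
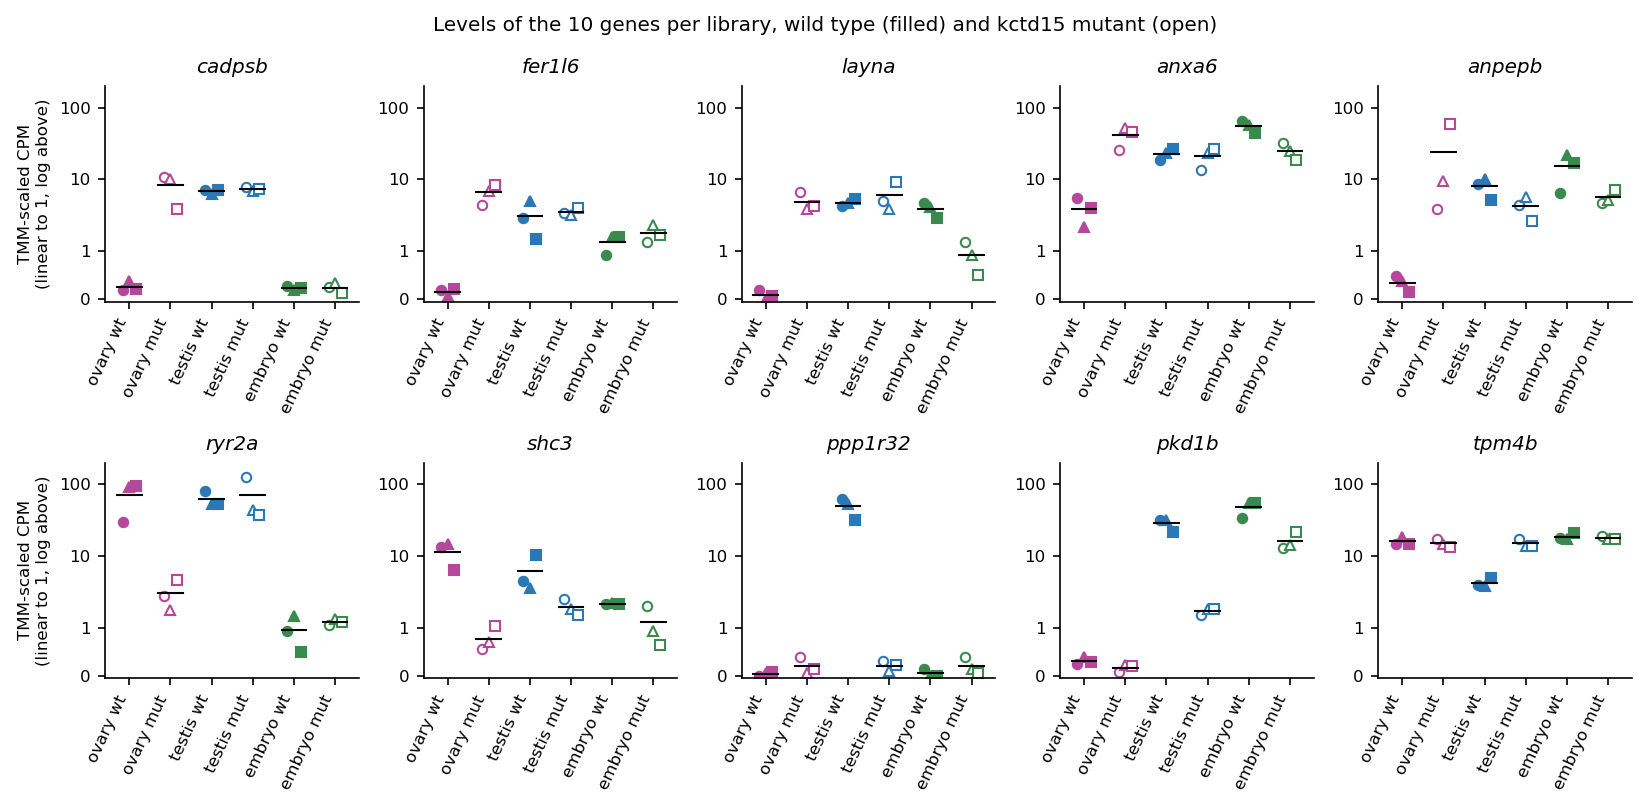
TMM-scaled CPM (y axis, linear up to 1 and logarithmic above) of each gene in wild-type (filled) and kctd15 mutant (open) ovary, testis and 10-somite embryos. Circles, triangles and squares are replicates 1, 2 and 3 and bars are means of 3 libraries; cadpsb, fer1l6, layna and anpepb lie below 1 CPM in every wild-type ovary and above 3 CPM in every mutant ovary.

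The gene cadpsb encodes a Cadps protein, which primes dense-core vesicles for release. Its level was 0.183, 0.389 and 0.215 CPM in wild-type ovaries and 10.7, 10.2 and 3.93 CPM in mutant ovaries. All mutant ovaries were far above all wild-type ovaries, a log2 difference of 4.95 (SE 0.49), or 30.9-fold. In testis it was at 7.08, 6.31 and 7.09 CPM in wild type and 7.86, 6.82 and 7.32 CPM in mutants, groups that overlapped. Wild-type ovaries gave only 2.8, 5.9 and 2.8 estimated counts, so the size of the fold rests on few reads.

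The ferlin gene fer1l6 encodes a membrane protein with several C2 domains. It stood at 0.183, 0.0649 and 0.215 CPM in wild-type and 4.48, 7.01 and 8.32 CPM in mutant ovaries. The groups did not overlap, and the log2 difference was 5.39 (SE 0.62), or 42.0-fold, against wild-type counts of 3, 1 and 3. Testes held 2.91, 4.97 and 1.49 CPM in wild type and 3.39, 3.19 and 4.01 CPM in mutants, with overlap.

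The layilin gene layna followed the same order. Wild-type ovaries were at 0.183, 0 and 0.0716 CPM and mutant ovaries at 6.72, 3.83 and 4.26 CPM. Its log2 difference was 5.74 (SE 0.69), or 53.4-fold, from 3, 0 and 1 wild-type counts. Testes of both genotypes overlapped, at 4.29, 4.65 and 5.30 CPM in wild type and 4.96, 3.89 and 9.14 CPM in mutants.

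The annexin gene anxa6 was the only gene of the 5 with a clear level in wild-type ovary, at 5.54, 2.21 and 4.01 CPM. Mutant ovaries held 25.5, 52.5 and 46.0 CPM, all above the wild types, for a log2 difference of 3.41 (SE 0.42), or 10.7-fold. Testes overlapped again, at 18.5, 23.7 and 26.5 CPM in wild type and 13.7, 23.4 and 26.2 CPM in mutants.

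Anpepb, an aminopeptidase N gene, varied most among mutant ovaries. Wild types were at 0.487, 0.389 and 0.143 CPM and mutants at 3.84, 9.60 and 60.0 CPM. All mutants were above all wild types, but the third, the library with the high gut and liver markers, was far above the others. The log2 difference was 6.17 (SE 1.01), or 71.9-fold, and 4.26 without that library. Testes overlapped, at 8.77, 10.3 and 5.23 CPM in wild type and 4.46, 5.76 and 2.67 CPM in mutants, a log2 difference of -0.89 (SE 0.78). Fabp2, a fatty acid binding protein of enterocytes, and vil1, encoding villin of brush borders, were at 125 and 65.3 CPM in that library and at no more than 3.28 CPM in the other ovaries. Their part in the anpepb level was not tested. RefSeq's current table names this gene anpepb.1, and whether reads were shared with a near copy was not tested.

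Without the third mutant ovary the other log2 differences were 5.27 for cadpsb, 5.17 for fer1l6, 5.81 for layna, 3.30 for anxa6, -4.99 for ryr2a and -4.16 for shc3. Without the second they were 4.76 for cadpsb, 5.35 for fer1l6, 5.89 for layna, 3.2 for anxa6, 6.54 for anpepb, -4.23 for ryr2a and -3.79 for shc3. The 13 measured testis germ cell markers summed to 548 to 667 CPM in mutant and 395 to 474 CPM in wild-type ovaries, against 3188 to 3684 CPM in the testes, and tssk6, a kinase gene of spermatids, was at 0 in every ovary. Of these markers tekt1, odf3b, meig1, spag6 and sycp3 stayed at or below 2.1 CPM in every ovary, and ropn1l at or below 3.18 CPM. Spata4 was at 9.07 to 13.0 CPM in wild-type and 4.96 to 12.4 CPM in mutant ovaries. Most of each ovary sum lay in ddx4, dazl and piwil1. Ddx4 was at 157 to 226 CPM in wild-type and 162 to 233 CPM in mutant ovaries. Dazl was at 75.8 to 123 and 109 to 124 CPM. Most of the gap lay in piwil1, at 98.4 to 146 CPM in wild-type and 174 to 199 CPM in mutant ovaries, and in spata18 and tsga10. Spata18 was at 3.22 to 11.9 CPM in wild-type and 39.4 to 70.4 CPM in mutant ovaries. On TMM values wild-type testes held less of spata18 than mutant ovaries, at 18.5 to 28.1 CPM. It was the 1 marker of the 13 that edgeR called in ovary, against 0.348% of all genes called higher. Tsga10 overlapped, at 4.02 to 10.8 CPM in wild-type and 79.5, 5.28 and 36.6 CPM in mutant ovaries. The other markers were not called. The part of the testis germ cell markers in the 5 higher levels was not tested. The 14 measured gonad support cell markers had a median log2 difference of -0.69 in ovary, with 5 above 0 and 0 called by edgeR. Inha, amh, star and nr5a1a were lower without overlap, against 7.45% of all genes. Amh was at 2.74 to 4.67 CPM in wild-type and 1.12 to 2.03 CPM in mutant ovaries. Star was at 3.87 to 34.1 and 0.27 to 2.24 CPM. The part of these markers in the ryr2a and shc3 levels was not tested. In bulk tissue, a change in how many cells express a gene and a change in RNA per cell cannot be told apart.

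Ryr2a, a ryanodine receptor gene whose mammalian counterpart is the cardiac calcium release channel, was low in mutant ovaries. It stood at 29.6, 90.0 and 93.5 CPM in wild-type and 2.80, 1.78 and 4.65 CPM in mutant ovaries. The lowest wild type was above the highest mutant, and the log2 difference was -4.52 (SE 0.61), 22.9-fold. Testis kept a high level in both genotypes, at 80.9, 52.8 and 52.8 CPM in wild type and 127, 44.1 and 37.5 CPM in mutants, with overlap.

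Shc3, an adaptor gene of neurons in mammals, was at 13.2, 14.6 and 6.45 CPM in wild-type and 0.560, 0.701 and 1.05 CPM in mutant ovaries. The log2 difference was -3.85 (SE 0.54), 14.5-fold. It was the only gene of the 10 apart from pkd1b whose libraries lay lower without overlap in both mutant organs. In testis it held 4.49, 3.56 and 10.2 CPM in wild type and 2.56, 1.83 and 1.53 CPM in mutants, a log2 difference of -1.60 (SE 0.48).

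Ppp1r32, whose product lies in cilia in rodents, was a testis transcript that was near 0 in mutants. Wild-type testes were at 62.6, 52.4 and 31.8 CPM and mutant testes at 0.305, 0.10 and 0.223 CPM. No mutant came near a wild type, and the log2 difference was -7.82 (SE 0.64), or 226-fold, with 8.3, 2.7 and 7.1 estimated counts left in the mutants. Ovaries of both genotypes were at 0.400 CPM or less. The testis germ cell markers summed to 3188 to 3684 CPM in wild-type and 3323 to 3579 CPM in mutant testes, with overlap. EdgeR called 0 of the 13, with 11 above 0 and a median log2 difference of 0.27. Sycp3 and spata18 were higher without overlap, against 9.22% of all genes. Sycp3 ran from 198 to 241 CPM in wild type and 269 to 364 in mutants, spata18 from 18.5 to 28.1 and 32.4 to 39.6. The 14 measured gonad support cell markers summed to 2988 to 6510 and 2800 to 4176 CPM, also with overlap. Of the support cell markers 0 were called by edgeR, with 4 of the 14 above 0 and a median log2 difference of -0.20. Amh, gsdf and inha, genes of Sertoli cells, and cyp11c1, a gene of steroid synthesis, were lower without overlap, against 6.35% of all genes. Amh ran from 154 to 303 CPM in wild type and 80.3 to 112 in mutants, gsdf from 533 to 878 and 346 to 380. Inha ran from 97.3 to 157 and 53.3 to 64.3, and cyp11c1 from 50.2 to 93.5 and 32.9 to 45.8. Foxl2 was higher without overlap, at 0.24 to 0.61 CPM in wild type and 0.70 to 1.60 CPM in mutants. The part of these markers in the testis levels of ppp1r32, pkd1b and tpm4b was not tested.

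Pkd1b, a polycystin-1 gene, was low in the same organ. It was at 32.0, 32.0 and 21.8 CPM in wild-type and 1.53, 1.83 and 1.85 CPM in mutant testes, a log2 difference of -4.01 (SE 0.36), or 16.1-fold. Ovaries were near 0, at 0.244, 0.389 and 0.286 CPM in wild type and 0.0799, 0.216 and 0.197 CPM in mutants. The ovary values did not overlap, yet they rest on 1 to 5.9 estimated counts a library.

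Tpm4b, a tropomyosin gene, was the gene that was high in mutant testis, at 17.4, 13.8 and 14.0 CPM against 3.93, 3.80 and 5.00 CPM in wild type. The log2 difference was 1.85 (SE 0.25), 3.61-fold. Ovaries held 14.9, 18.3 and 14.7 CPM in wild type and 17.0, 14.5 and 13.2 CPM in mutants, with overlap. With replicate number as a block 10 genes in place of 18 were called in testis and tpm4b was not among them. The 12 smooth muscle and stroma markers, which include the actin gene acta2, summed to 402 to 1065 CPM in wild-type and 291 to 717 CPM in mutant testes. These sums overlapped, but 1 of the 12 markers had a log2 difference above 0, and their median was -0.76. Edger called 0 of them, and their part in the tpm4b level was not tested. The deposited transcript table places the gain in NM_199675, with 70.7, 75.7 and 90.5 estimated counts in wild-type and 501, 447 and 472 in mutant testes. These came to 73.0% of the gene's counts in wild-type and 108% in mutant testes. Transcript and gene counts are therefore not on the same scale, and the size of the transcript gain is not that of the gene.

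**Figure D2:**
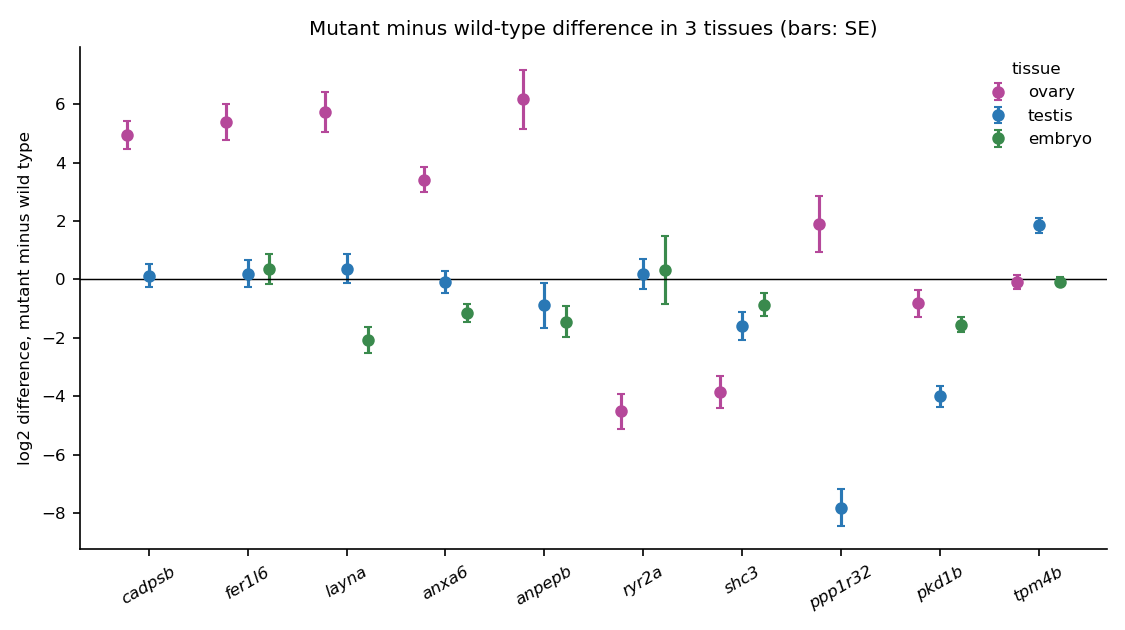
Log2 difference of mutant minus wild type (y axis) for each gene in ovary, testis and embryo from edgeR fits, with bars of 1 SE. Of the 5 genes that were high in ovary, cadpsb, fer1l6, layna and anxa6 lie within 0.37 of 0 in testis and anpepb at -0.89. Pkd1b and shc3 lie below 0 in all 3 tissues. Ppp1r32 and cadpsb have no embryo value because their counts were below the filter.

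Overlap was also counted without a test. In ovary 5 of the 10 genes were higher and 3 lower without overlap, against 7.97% and 7.45% of all genes, and in testis 1 was higher and 3 lower, against 9.22% and 6.35%. Nothing is read from these shares, since the choice of genes used the same libraries. Comparing organs needs care, since the TMM factors were 1.58 to 1.70 in testes and 0.753 to 0.888 in ovaries. On TMM values the mean of cadpsb was 8.28 CPM in mutant ovary and 6.83 in wild-type testis, and on library totals it was 6.52 and 10.95 CPM. The order of mutant ovary and wild-type testis turned in this way for layna and anxa6 as well, fer1l6 came to 5.10 and 5.02 CPM on library totals, and the order turned too for that of wild-type ovary and testis for ryr2a, at 71.0 and 62.2 CPM on TMM values. It held for ppp1r32 and pkd1b, both near 0 in ovary, and for the near absence of cadpsb, fer1l6 and layna from wild-type ovary.

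Embryos gave the same genes a test on libraries that, by the rule, did not choose them. Of the 10 genes 8 passed the filter on low counts, and 3 of these, pkd1b, layna and anxa6, were lower in kctd15 mutant embryos than in wild type, while 0 were higher. Over all 22305 genes tested 4.09% were called, 2.73% lower and 1.36% higher. No label pairs the libraries of these groups, but same-numbered ones were taken as paired from their correlations. With replicate number as a block the same 3 genes were called, among 2931 genes in place of 912. The median log2 difference of the 8 that passed was -1.01, beside -0.01 over all genes.

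Pkd1b, which was also low in mutant testis, was at 33.3, 55.5 and 54.9 CPM in wild-type and 13.1, 14.2 and 21.8 CPM in mutant embryos. Every mutant library was below every wild-type library, with a log2 difference of -1.56 (SE 0.26, edgeR adjusted p = 0.0027). It was called with any single library of the 2 groups left out. All 18 libraries of non-mutant embryos, injected or not, exceeded all 3 mutants.

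Layna went the other way from ovary. Wild-type embryos were at 4.63, 4.15 and 2.92 CPM and mutants at 1.34, 0.932 and 0.515 CPM, without overlap, for a log2 difference of -2.06 (SE 0.44, edgeR adjusted p = 0.013). The edgeR adjusted p was 0.058 without mutant replicate 2 and 0.091 without mutant replicate 3.

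Anxa6 also was lower in embryos and higher in ovary. It was at 65.6, 57.0 and 44.3 CPM in wild-type and 32.4, 24.6 and 18.4 CPM in mutant embryos, without overlap. The log2 difference was -1.15 (SE 0.30, edgeR adjusted p = 0.038). This call was lost when any library but mutant replicate 1 was left out, with edgeR adjusted p of 0.12 and 0.19 without mutant replicates 2 and 3 and of 0.097, 0.10 and 0.055 without wild-type replicates 1, 2 and 3. Without the low-count filter it was 0.051.

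The other 5 tested genes did not pass. Shc3 was at 2.14, 2.2 and 2.13 CPM in wild-type and 1.98, 0.932 and 0.644 CPM in mutant embryos, again without overlap, with a log2 difference of -0.86 (SE 0.40, edgeR adjusted p = 0.24). With it 4 of the 10 genes were lower without overlap, against 13.6% of genes. Anpepb was at 6.56, 22 and 17.2 CPM in wild type and 4.67, 5.13 and 7.15 CPM in mutants, a log2 difference of -1.44 (SE 0.54, edgeR adjusted p = 0.14). Values for tpm4b (log2 -0.07, SE 0.15), fer1l6 (0.37, SE 0.52) and ryr2a (0.33, SE 1.17) had wide overlap, and the last 2 have errors that leave room for sizeable differences. These errors are from the fit without the replicate block. For both fer1l6 and ryr2a replicate 2 was the highest in 7 of 7 embryo groups, a shared difference that this fit counts as spread. Ppp1r32 and cadpsb were at 0.384 CPM or less in both groups and were not tested. For ppp1r32 no non-mutant embryo library exceeded 0.143 CPM, and 15 of the 18 lay below all mutants, at values near 0.

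**Figure D3:**
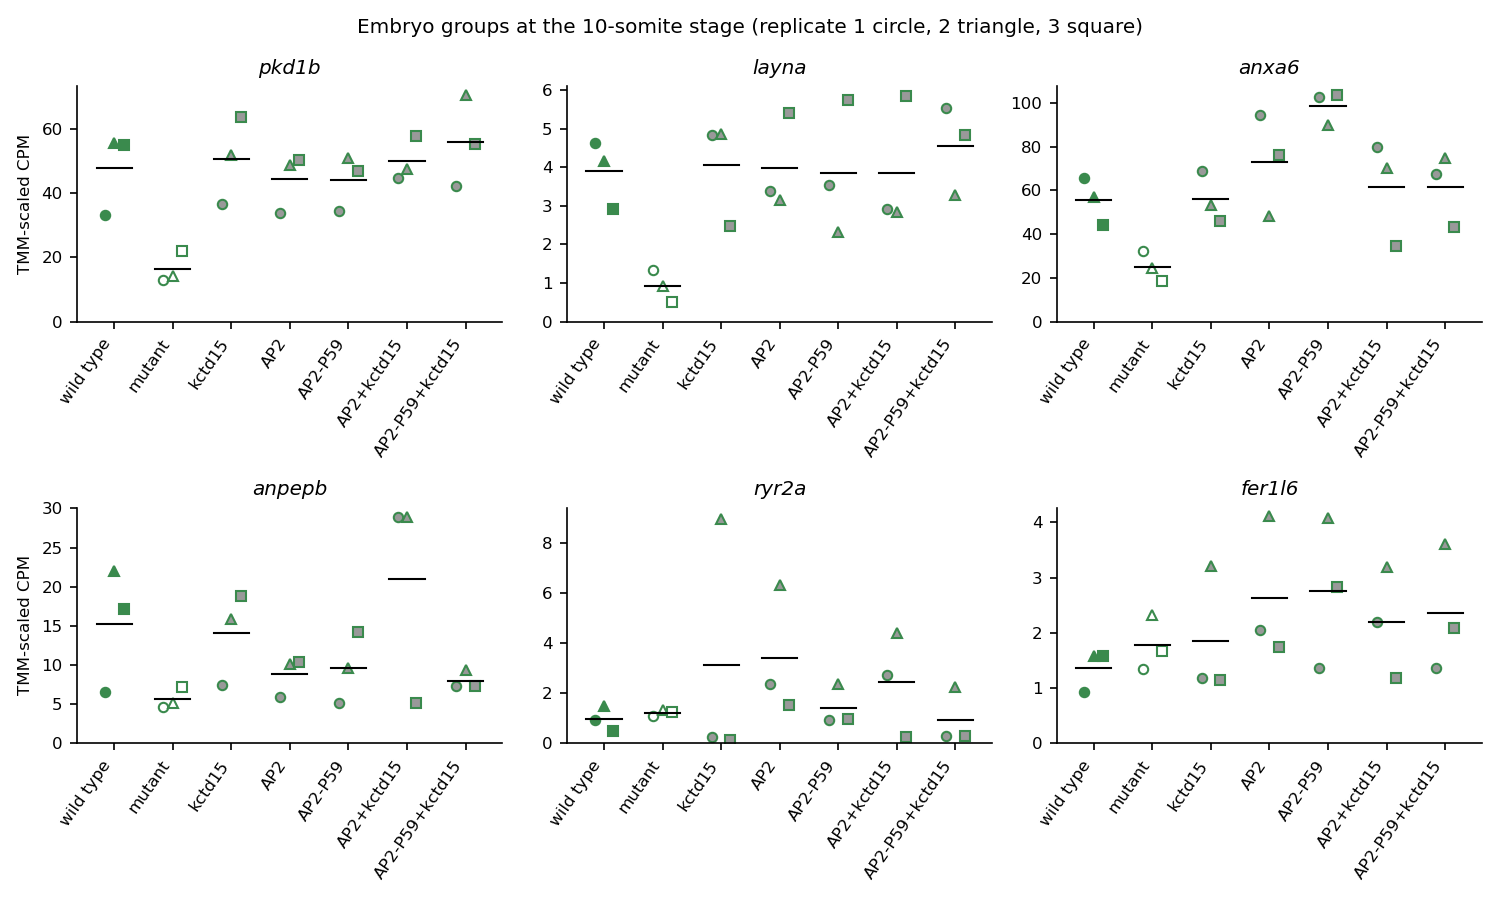
TMM-scaled CPM (y axis, from 0) of 6 of the genes in the 7 embryo groups, with wild type filled green, mutant open and injected groups grey; circles, triangles and squares are replicates 1, 2 and 3 and bars are means. Mutants lie below all 18 other libraries for pkd1b, layna and anxa6, and replicate 2 is the highest of its group in all 7 groups for ryr2a and fer1l6.

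Injection of kctd15, AP2 or AP2-P59 moved none of the 8 tested genes past the threshold. The 5 contrasts were each injection alone against wild type, and kctd15 added to AP2 or to AP2-P59. In edgeR 0 of the 8 genes were called in each, as in DESeq2 and limma, and 0, 0, 1, 1 and 1 had an unadjusted p under 0.05. Over all genes edgeR called 0% in 4 of the contrasts, with 763, 745, 1199 and 906 genes at an unadjusted p under 0.05 16, 0, 11 and 16 called by DESeq2 and 1, 0, 0 and 0 by limma. It called 0.197%, or 44 genes, when kctd15 was added to AP2. With replicate number as a block these counts were 12, 1, 0 and 13, and 143 for kctd15 added to AP2, with 0 of the 8 genes among them. The 44 fell to 8 without AP2 replicate 2, to 2 without AP2 with kctd15 replicate 2 and to 0 with only the groups compared, and leaving out each other library gave 20 to 32. DESeq2 called 150. Contrasts that share control libraries are not independent of each other.

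The largest moves among these genes were in anxa6 and anpepb. Anxa6 was at 103, 89.8 and 103 CPM after AP2-P59, above all wild types, with a log2 difference of 0.82 (SE 0.30, edgeR adjusted p = 0.88). In the libraries labelled AP2-P59 with kctd15 it was at 67.5, 74.6 and 43.1 CPM, below all libraries of AP2-P59 alone, with a log2 difference of -0.68 (SE 0.30, edgeR adjusted p = 1.00). The first of these is the library with 0 counts of the kctd15a transcript, and without it the difference was -0.77 (SE 0.34, edgeR adjusted p = 0.88). Anpepb was at 28.9, 28.9 and 5.09 CPM after AP2 with kctd15 and 5.87, 10.1 and 10.3 CPM after AP2 alone, groups that overlapped (edgeR adjusted p = 0.83).

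Over the 15 injected libraries pkd1b ran from 33.9 to 70.4 CPM with a median of 48.7, layna from 2.31 to 5.83 with a median of 3.53, and anxa6 from 34.7 to 103 with a median of 70.4. Ryr2a varied most for its level, from 0.121 to 8.96 CPM with a median of 1.53. Its highest value fell on replicate 2 in 7 of 7 embryo groups, and that of fer1l6 did too, whatever the injection. Tpm4b stayed between 17.2 and 25.8 CPM and shc3 between 1.22 and 2.77 CPM. Cadpsb and ppp1r32 did not exceed 0.638 and 0.0671 CPM.

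Relatives of the 10 genes were listed by family or partnership and not for any change, so they could be tested in the gonads. The lists were, however, drawn up with earlier results of these data known. Of 133 listed genes of the same families and their known partners, 119 were in the table and 117 were tested. In edgeR 0 were called in mutant ovary, against 0.553% of all genes, and 22 relatives (18.8%) had an unadjusted p under 0.05, against 14.8% of all genes. There DESeq2 called 5 and limma 1. In mutant testis edgeR called 0, against 0.0696% of all genes, with 5 (4.27%) at an unadjusted p under 0.05, against 7.01%, and 2 called by each of DESeq2 and limma. For the difference between the mutant effects in testis and ovary all 3 tools called 0 relatives, where edgeR called 0.0812% of all genes. In edgeR 18 relatives (15.4%) had an unadjusted p under 0.05 there, against 10.9% of all genes. The median log2 difference of the relatives was 0.04 in ovary and -0.01 in testis.

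Of the direct paralogues, ryr2b had a log2 difference of 1.40 (SE 0.60) in ovary, at 1.34, 12.8 and 14.6 CPM in wild type and 35.9, 20.5 and 19.2 CPM in mutants, on the opposite side from ryr2a (edgeR adjusted p = 0.31). Cadpsa and cadps2 had log2 differences of -0.61 and 0.16, laynb of 0.43 and shc1 of -0.63 in ovary. Tpm4a had -0.33 in testis, where tpm4b was high, and pkd2, whose product pairs with polycystin-1 in a channel complex, had -0.52.

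Anpepa and anxa2b had the largest log2 differences of the relatives in ovary, 5.17 and 4.78, with edgeR adjusted p of 0.17 for both. Anpepa was at 0.0799, 0.216 and 16.2 CPM in mutant ovaries and anxa2b at 0.240, 0.216 and 13.9 CPM. Both were high only in the third mutant ovary, the library with the high gut and liver markers, while anpepb and anxa6 were high in all 3.

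Among the vesicle genes, snap25a, a SNARE of exocytosis, was at 2.31, 0.389 and 0.43 CPM in wild-type and 7.03, 5.39 and 3.54 CPM in mutant ovaries, with log2 2.34 (edgeR adjusted p = 0.12). It was called by DESeq2 and by limma. Pkd1l1, a polycystin-1-like gene, was at 0.913, 0.714 and 0.0716 CPM in wild-type and 4.16, 2.32 and 2.88 CPM in mutant ovaries (log2 2.44, edgeR adjusted p = 0.11). In testis pkd1l2a, another of that family, was at 1.38, 1.5 and 1.33 CPM in wild type and 5.83, 7.05 and 7.61 CPM in mutants, where pkd1b was low (log2 2.31, edgeR adjusted p = 0.31). Stxbp1b, which binds syntaxin, was at 3.19, 2.83 and 1.83 CPM in wild-type and 7.93, 5.49 and 9.58 CPM in mutant testes (log2 1.58, edgeR adjusted p = 0.21). DESeq2 and limma called both.

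**Figure D4:**
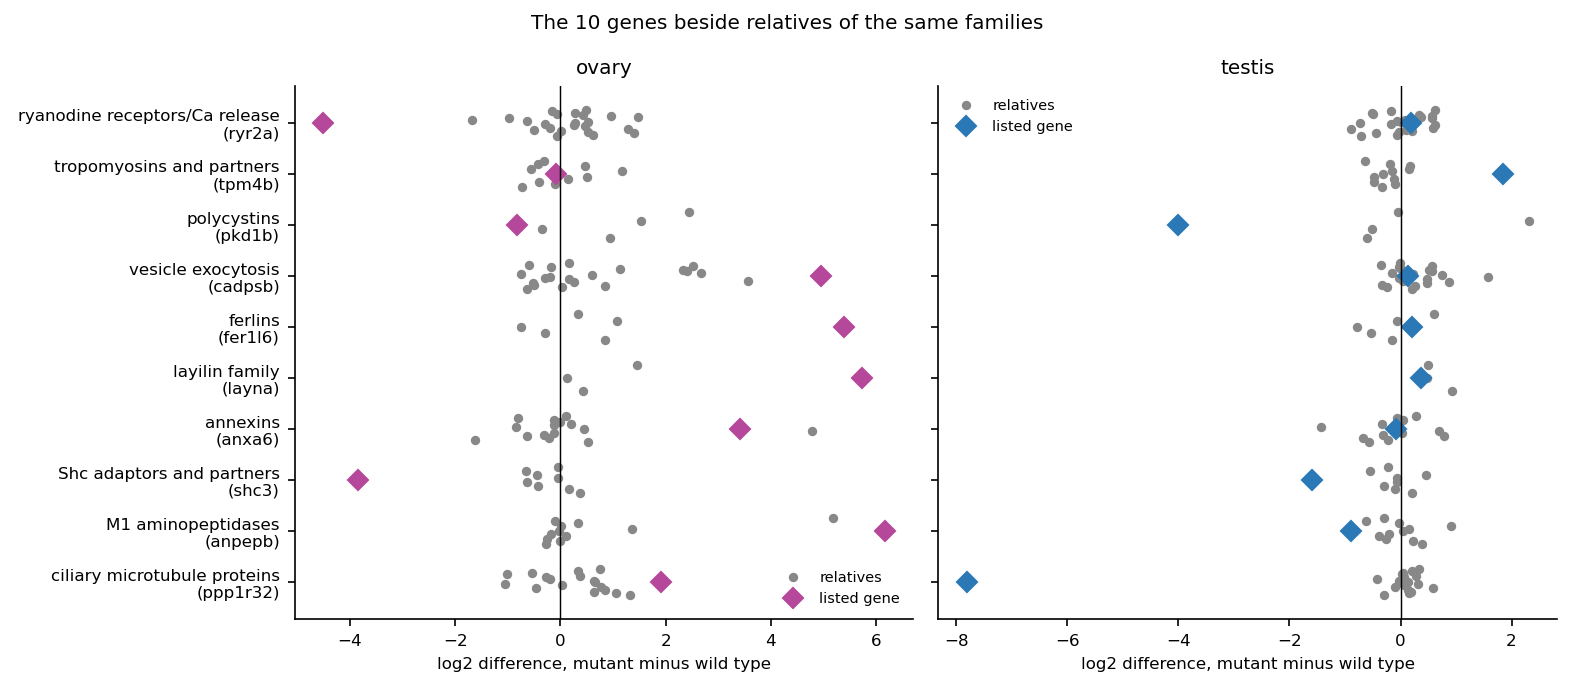
Log2 difference of mutant minus wild type (x axis) in ovary (left) and testis (right) for tested relatives (grey dots) and the listed gene of each family (diamond), with families in rows. The diamonds were chosen for their size. The dots were listed by family or partnership, with earlier results of these data known. The grey dots above 4 in ovary are anpepa and anxa2b.

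The ciliary list around ppp1r32 had 17 tested genes and a median log2 difference of 0.13 in mutant testis, where ppp1r32 was at -7.82. Cfap45, of axonemal microtubules, was at 205, 154 and 157 CPM in wild-type and 198, 169 and 150 CPM in mutant testes. In ovary the median of the list was 0.38 and edgeR called 0. There 6 of the 17 had an unadjusted p under 0.05, 3 of them higher, against 14.8% of all genes. DESeq2 called cfap45 and enkur there, both lower. Cfap45 was at 6.42 to 7.66 CPM in wild-type and 2.21 to 5.52 CPM in mutant ovaries, enkur at 21.5 to 47.3 and 11.3 to 18.6 CPM. In embryos 107 relatives were tested, and 2 were called higher and 1 lower in mutants. These 2.8% are no more than the 4.09% called over all genes. The priming gene unc13a, listed as si:dkey-110c1.7, was at 1.07, 1.1 and 1.82 CPM in wild type and 3.52, 5.33 and 4.77 CPM in mutants (log2 1.75, edgeR adjusted p = 0.0076). Its relative unc13c fell (log2 -2.68, edgeR adjusted p = 0.034), and the annexin gene anxa1d, listed as zgc:110283, rose (log2 0.97, edgeR adjusted p = 0.049).

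The genes most like each of the 10 were found by Pearson's r of log2(CPM + 1) over the 12 gonad libraries, which mostly follows the 4 group means. Their levels in mutant and wild-type gonads therefore follow from how they were found and are a description only. For both ppp1r32 and pkd1b these were cryabb, a small heat shock protein gene, and tor1l1 (r of 0.96 to 0.97). Cryabb was at 3.74, 7.11 and 5.95 CPM in wild-type and 0.114, 0.466 and 0.318 CPM in mutant testes. For cadpsb and layna the first was capn1b, a calcium-dependent protease gene (r = 0.96 for each), at 3.29, 1.62 and 1.72 CPM in wild-type and 16.2, 18.7 and 8.59 CPM in mutant ovaries.

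For anxa6 the first was spata18 (r = 0.91), for fer1l6 ponzr4 (r = 0.91) and for ryr2a dtna (r = 0.93). Shc3 was followed by dock8 (r = 0.94) and hmcn2 (r = 0.91), a hemicentin gene of the extracellular matrix. Hmcn2 was at 37.6, 30.5 and 23.5 CPM in wild-type and 0.959, 1.13 and 0.917 CPM in mutant ovaries. Anpepb was followed by cdhr2 (r = 0.95), a cadherin of brush borders. Cdhr2 was at 2.13, 3.5 and 1.65 CPM in wild-type and 9.51, 7.60 and 40.0 CPM in mutant ovaries. For tpm4b the closest was rnf114 (r = 0.89).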

How the data were processed

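Per the labels' protocols, RNA was extracted with TRIzol and 100 ng went into stranded polyadenylated libraries. Per the submitters' processing notes, Trimmomatic 0.36, kallisto 0.43.0, edgeR and GRCz10 were used. The authors deposited estimated counts (expected counts) for 30490 genes and 54435 transcripts and a normalized CPM table for 25374 genes, a signal in which each column is the gene table times a constant and which served only as an alternative.

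Estimated counts were rounded and fitted with edgeR 4.0.16 (R 4.3.3; TMM, filterByExpr with minimum count 10 and total 15, robust quasi-likelihood F tests, two-sided, Benjamini-Hochberg over all genes tested, threshold 0.05). Gonads (25870 genes) and embryos (22305 genes) had a fit each. SE is the log2 difference divided by the square root of F. The fitting was tested on simulated data.

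The genes, the lists of relatives and the markers were chosen with earlier results of these data known. Named genes are the 10, the relatives with the smallest p per list, the 2 most alike genes and kctd15a and kctd15b; direct paralogues outside this rule (cadpsa, cadps2, tpm4a in testis) were added by name, and fabp2 and vil1 after their values were seen. P-values measure the spread between libraries that the labels call biological replicates.

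Whether replicate numbers pair libraries was checked by the correlation, across genes, of what same-numbered libraries differ by from the mean of their group. For mutant and wild-type embryos r was 0.372, 0.250 and 0.120, taken as paired. For testis the smallest r was 0.106 or 0.0865 depending on the gene set, so its blocked result is given beside the unblocked one, and for ovary it was -0.0384, not paired. The counts called with the block were already known when this was checked. Alternatives were RLE scaling, no filter, DESeq2 1.42.0, limma-trend 3.58.1 on log2(CPM + 0.5), a replicate block, only the groups compared, and each library left out. Neighbouring genes were taken from the gene order of RefSeq's GRCz12tu table. Sequences and promoter motifs were not used here.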

Additional observations from a re-analysis of the deposited data

Results flagged for a closer look

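The mutant effect in testis minus that in ovary, on the log2 scale, was -9.72 for ppp1r32, -4.82 for cadpsb, -5.19 for fer1l6, -5.37 for layna and -3.5 for anxa6. These genes were chosen on the same contrasts, so the difference between organs is a description of them.

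Layna and anxa6 differed from wild type in opposite directions in ovary and embryo, with every mutant library on the one side in ovary and on the other in embryo. The log2 differences of layna were 5.74 in ovary and -2.06 in embryos, and those of anxa6 were 3.41 and -1.15. The difference between ovary and embryo was not tested, since the tissues were fitted apart.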

How the results depend on the processing

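For mutant embryos, counts of genes called were 912 in edgeR, 1661 in DESeq2, 2931 with the replicate block and 263 to 756 with a library left out. For ovary they were 143 in edgeR, 1058 in DESeq2, 23 with only the groups compared and 33 to 142 with a library left out, and for testis 18, 293 in DESeq2, 117 in limma, 10 with the replicate block, 7 with only the groups compared and 5 to 24 with a library left out. Of the 10 genes, 1 to 3 were called in embryos with a library left out, and 2 without the filter. Relatives called in ovary were 5 in DESeq2, 1 in limma and 0 to 2 with a library left out, and in testis 2 in DESeq2 and 2 in limma. Tpm4b in embryos, at -0.07, ran from -0.13 without wild-type replicate 2 to 0.026 without wild-type replicate 3. In the gonads tpm4b and anpepb left the called set with the block, tpm4b without any library but mutant replicate 1 and anpepb without any 1 wild-type ovary. With only the groups compared, tpm4b, anpepb, layna and shc3 left it. Limma on log2(CPM + 0.5) gave smaller differences for low genes, such as 3.18 for layna in ovary. The block changed no other call of the 10 genes. The cause of these changes was not tested. With 3 libraries a group and few counts in wild-type ovaries, folds of cadpsb, fer1l6, layna and anpepb are imprecise.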

Other observations

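Neighbours were counted within 10 protein-coding genes on either side of each gene in the order of the GRCz12tu assembly, for 9 of the 10 genes, since ppp1r32 was not matched in that table. By edgeR 1 of 129 tested neighbours (0.775%) was called in mutant ovary, against 0.553% of all genes. It was cd28, a T cell co-stimulatory receptor gene that lies several genes away from fer1l6. In mutant testis 0 of 129 were called, against 0.0696% of all genes. In mutant embryos 7 of 120 (5.83%) were called, against 4.09% of all genes. They were caskin2 and hdlbpb near pkd1b, hemk1 and slc6a13l near cadpsb, fdxacb1 near layna, zgc:110339 near anpepb and cd28 near fer1l6. All of these lay several genes away from the listed gene. None of the 9 matched genes lies within that distance of kctd15a or kctd15b.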
